A study of Homo sapiens with 6 samples.

Results

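The CDK inhibitors and the D and E cyclins were followed in confluent hTERT RPE1 cells, a widely used human cell line from retinal pigment epithelium that telomerase keeps dividing. They are 10 genes, chosen by symbol and matched by Ensembl ID among the 38900 IDs of the deposited table. They comprise the CIP/KIP inhibitors CDKN1A, CDKN1B and CDKN1C, the INK4 inhibitors CDKN2B and CDKN2C, the D cyclins CCND1, CCND2 and CCND3, and the E cyclins CCNE1 and CCNE2. All 10 have a row in the table. Testing required a mean normalized count of 10 or more, which 9 of them reached and CDKN1C did not.

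PolyA RNA was sequenced in 6 libraries from cells grown to 100% confluency and kept there for 5 days. The 3 control libraries are of cells given fresh medium with 0.1% DMSO for 6 hours. The other 3 are of cells given fresh medium with 100 nM combretastatin A4 (CA4), a small molecule that binds tubulin and takes microtubules apart, for the same 6 hours. Both groups therefore share the 5 days at confluency, the change of medium and the single immortalised cell line. Whether all cells had stopped cycling was not measured. The labels do not say whether the libraries come from separate cultures on separate days, so the p-values measure the spread between these libraries only. The comparison asks how the genes that hold cells in, or release them from, G1 differ between the 2 groups.

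D cyclins bind CDK4 and CDK6, and E cyclins bind CDK2. These kinases phosphorylate the retinoblastoma family of pocket proteins, which frees E2F transcription factors to switch on the genes of S phase. INK4 inhibitors bind CDK4 and CDK6 and keep D cyclins away, whereas CIP/KIP inhibitors bind assembled cyclin and CDK complexes. Arrest by contact in epithelial cells is classically tied to the p27 protein made from CDKN1B.

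The libraries held 19524936 to 22538004 reads recovered from the deposited values, and 1 read was worth 0.935 to 1.12 normalized counts. Among the 13928 tested genes limma called 688 (4.94%) at an adjusted p under 0.05, with 413 of them (2.97%) higher and 275 (1.97%) lower in CA4. The called genes were higher in CA4 in 60.03% of cases with the authors' scaling and in 34.8% with every library scaled to the same total, under which the tested genes had a median log2 fold change of -0.11 in place of -0.0082. Among the pigment epithelium markers PAX6, OTX2 and MITF were read in every library, while TYR had at most 2.9 and RLBP1 at most 5.7 normalized counts. The summed level of the 8 pigment epithelium markers was 2175 to 3192 normalized counts in DMSO and 1237 to 1900 in CA4, and 2 of its 6 tested genes, OTX2 and PAX6, fell in CA4. Both passed in 2 of the 6 fits that each leave out a library, those without DMSO replicate 1 and without CA4 replicate 2, and PAX6 missed the threshold in edgeR (adjusted p = 0.0506). The 6 blood, vessel and photoreceptor markers summed to 631 to 831 normalized counts in DMSO and 771 to 1587 in CA4, with CD3E at 0 in every library and 0 of the 4 tested genes past the threshold in limma or edgeR (1 at an unadjusted p under 0.05, 0 in DESeq2). The part of either marker list in the results below was not tested, and in bulk RNA fewer cells of a type and less RNA per cell cannot be told apart.

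Of the 9 genes tested, CDKN1A rose and was the single gene past the threshold, so 1 of 9 was called higher and 0 lower. None of the other 8 passed in this fit, which does not pair libraries. Both INK4 genes of the set and both E cyclins were lower in all 3 CA4 libraries than in any DMSO library, while CCND2 was higher in all 3. For 6 of the 9 genes the groups did not overlap, 2 with CA4 higher and 4 with CA4 lower, where the shares over all tested genes are 14.3% and 13.4%. At an unadjusted limma p under 0.05, which 23% of all tested genes passed, there were also 6 of the 9 genes, with CCND1 in place of CCND2. Over the 9 tested members the median log2 fold change was -0.45, against -0.0082 for all tested genes. With edgeR on the recovered reads the call count was again 1 of 9 (4.62% of all genes), and with DESeq2 it was 3 of 9 (11.6% of all genes), CDKN1A with CDKN2C and CCND1. With the replicate number as a block in limma it was 5 of 9 (17.2% of all genes), but the labels do not say that equal numbers are paired.

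**Figure D1:**
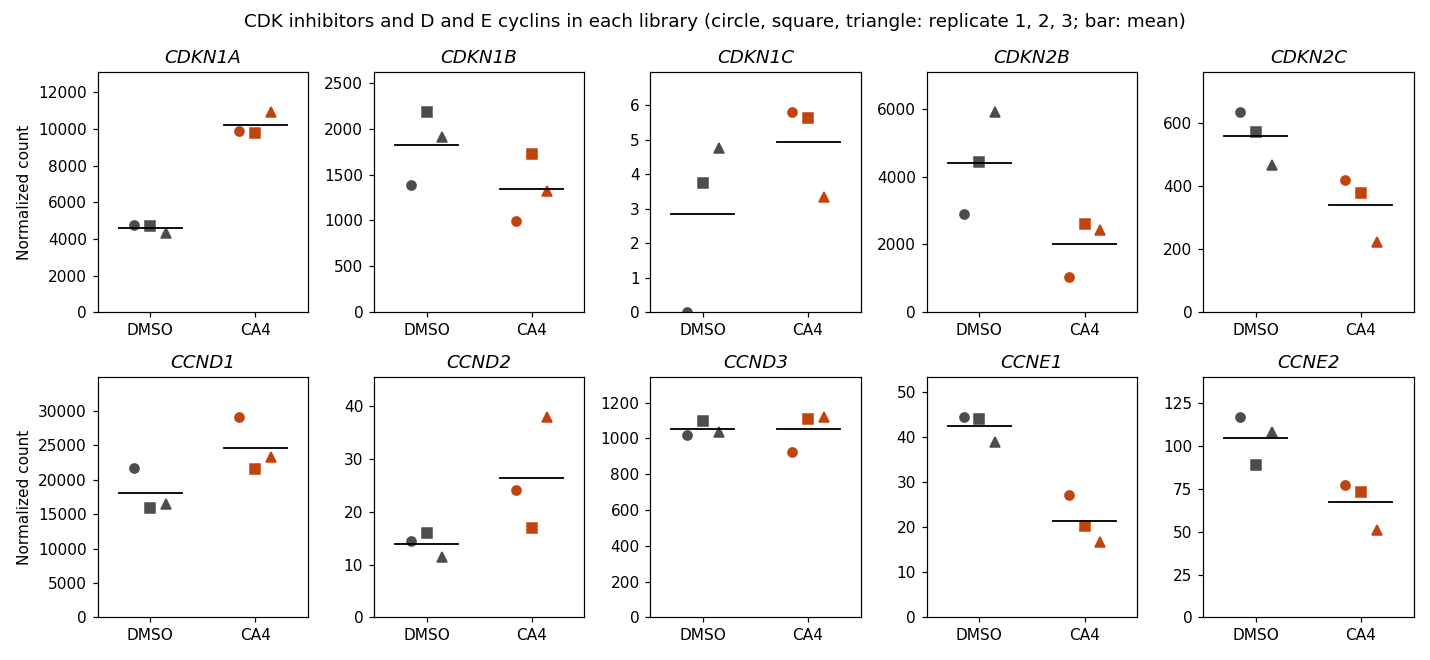
Normalized count (vertical axes, from 0) of each of the 10 genes in the 3 DMSO and 3 CA4 libraries; circles, squares and triangles are replicates 1, 2 and 3 and the bar is the group mean. The CA4 libraries of CDKN1A sit between 9794 and 10928, all above the DMSO libraries at 4346 to 4763, while those of CCND3 and CDKN1B overlap with DMSO.

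CDKN1A encodes p21, a CIP/KIP inhibitor that can halt the cell cycle in response to stress. The gene lies on chromosome 6 at 36676460 to 36687339 on the plus strand (GENCODE 29, GRCh38). It had 4763, 4712 and 4346 normalized counts in DMSO libraries 1 to 3 in order and 9904, 9794 and 10928 in CA4. Every CA4 library was thus above every DMSO library, and the libraries within a group lay close together, with a coefficient of variation of 4.94% in DMSO and 6.13% in CA4. The change was 2.21-fold, a log2 fold change of 1.15 with a 95% interval from 0.96 to 1.33 (limma adjusted p = 0.00154), and its p ranked 8 among all tested genes. In GENCODE 29, 4.79% of its exon bases lie in DINOL on the opposite strand, for which no value was used here. No fit without 1 library ended the call, with limma adjusted p-values from 0.00309 to 0.0159.

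The RefSeq promoter table (GRCh38.p14) has entries for CDKN1A, CDKN1B, CDKN2B, CDKN2C, CCND3 and CCNE1. They are shown for the inhibitor that rose and for the INK4 inhibitor and the E cyclin with the lowest log2 fold changes of their classes, as the longest stretch of the 250 bases before the start that lies in no GENCODE 29 exon, 5′ to 3′ on the gene's strand. The stretches are chr6:36678560-36678657 on the plus strand for CDKN1A, chr9:22009364-22009555 on the minus strand for CDKN2B and chr19:29811741-29811897 on the plus strand for CCNE1, and capitals mark GGGCGG on either strand, the core of the GC box bound by SP1.
CDKN1A: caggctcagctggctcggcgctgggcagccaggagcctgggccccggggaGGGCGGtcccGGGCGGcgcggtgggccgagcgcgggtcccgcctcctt
CDKN2B: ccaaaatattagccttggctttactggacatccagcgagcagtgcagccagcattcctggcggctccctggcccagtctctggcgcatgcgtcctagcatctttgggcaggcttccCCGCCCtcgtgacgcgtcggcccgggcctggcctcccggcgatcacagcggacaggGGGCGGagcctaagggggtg
CCNE1: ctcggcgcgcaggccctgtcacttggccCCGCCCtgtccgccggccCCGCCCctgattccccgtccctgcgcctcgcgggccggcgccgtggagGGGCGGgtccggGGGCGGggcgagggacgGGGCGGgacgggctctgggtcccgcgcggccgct
The letters GGGCGG stood 2 times in the stretch of CDKN1A, 2 times in that of CDKN2B and 5 times in that of CCNE1. In the whole windows, from 250 bases before the start to 50 after, there were 4 matches for CDKN1A, 1 for CDKN1B, 2 for CDKN2B and 7 for CCNE1. Of all 35116 windows in the table, 45% held at least 1 match. The windows of these 4 genes held no match on either strand to the TATA box letters TATAAA, which stand in 11.5% of all windows. They also held none to TTTCGCG or to the related TTTGGCG, letters typical of E2F sites that stand in 1.32% and 1.92% of all windows. Other spellings of E2F sites were not searched, so a lack of such sites cannot be read from this. CDKN2C and CCND3, with 3 windows each, are left out of these counts. Matches that share bases were each counted.

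CDKN1B, the gene of p27, is on chromosome 12 at 12715058 to 12722371 on the plus strand. Its values were 1387, 2182 and 1905 normalized counts in DMSO libraries 1 to 3 in order and 993, 1725 and 1321 in CA4. The groups overlapped, because CA4 replicate 2 lay above DMSO replicate 1. The log2 fold change was -0.45 with a 95% interval from -0.99 to 0.09 (limma adjusted p = 0.294), an interval that includes 0. Without CA4 replicate 1, the lowest library, it was -0.25.

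CDKN1C, the gene of p57, was close to silent in both groups. It had 0, 4 and 5 recovered reads in DMSO libraries 1 to 3 in order and 6, 5 and 3 in CA4. A value of 0 allows up to 3 reads, counting error only, so no direction can be read at this depth. The CIP/KIP transcript pool therefore consisted of CDKN1A and CDKN1B, of which CDKN1A made up 68.3% to 90.8% of the reads in a library.

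The INK4 inhibitors CDKN2B and CDKN2C stood lower in CA4. CDKN2B encodes p15, known as a target of TGF-beta signalling, and lies on chromosome 9 at 22002903 to 22009363 on the minus strand. It had 2895, 4436 and 5917 normalized counts in DMSO libraries 1 to 3 in order and 1050, 2595 and 2419 in CA4. All 3 CA4 libraries were below all 3 DMSO libraries, but the spread within each group was wide, with a coefficient of variation of 34.2% in DMSO and 41.9% in CA4. The log2 fold change of -1.18 had a standard error of 0.38 and a 95% interval from -2.06 to -0.29, and it missed the threshold (limma adjusted p = 0.121). Without CA4 replicate 1, the lowest library, it was -0.76 (limma adjusted p = 0.217).

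CDKN2C, the gene of p18, is on chromosome 1 at 50960745 to 50974633 on the plus strand. It had 636, 571 and 468 normalized counts in DMSO libraries 1 to 3 in order and 420, 379 and 222 in CA4. Again the groups did not overlap, although the highest CA4 and the lowest DMSO library were close. CDKN2C had a log2 fold change of -0.75 with a 95% interval from -1.33 to -0.18 (limma adjusted p = 0.125), and DESeq2 on the recovered reads put it past the threshold (DESeq2 adjusted p = 0.0425). Without CA4 replicate 3, the lowest library, it was -0.47.

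Among the D cyclins CCND1, which carries growth factor and adhesion signals into the cell cycle, was by far the most abundant. It lies on chromosome 11 at 69641087 to 69654474 on the plus strand. It had 21680, 15899 and 16420 normalized counts in DMSO libraries 1 to 3 in order and 29071, 21529 and 23291 in CA4. The groups overlapped by a narrow margin, since DMSO replicate 1 lay above CA4 replicate 2. The log2 fold change was 0.45 with a 95% interval from 0.09 to 0.82 (limma adjusted p = 0.134). Without DMSO replicate 1 it was 0.60 and passed (limma adjusted p = 0.0477), and DESeq2 on all 6 libraries also put it past the threshold (DESeq2 adjusted p = 0.0483). Scaling every library to the same total or by quantiles left CCND1 higher, at no less than 0.26 on the log2 scale. In GENCODE 29, 10.3% of the exon bases of CCND1 lie in LTO1 on the opposite strand, which had 433 to 525 normalized counts in DMSO and 500 to 619 in CA4, far below CCND1.

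CCND2 was nearly absent, with 14.5, 15.9 and 11.4 normalized counts in DMSO libraries 1 to 3 in order and 24.2, 16.8 and 37.9 in CA4. The lowest CA4 and the highest DMSO library differed by less than 1 count, and by recovered reads, 15 against 17, their order turned. Its log2 fold change of 0.81 had a 95% interval from -0.15 to 1.77 (limma adjusted p = 0.291), and without CA4 replicate 3, the highest library, it was 0.52. AC008012.1, a gene model on the same strand, shares 13.8% of the exon bases of CCND2.

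CCND3 lay at about the same level in both groups. It had 1022, 1098 and 1039 normalized counts in DMSO libraries 1 to 3 in order and 927, 1106 and 1119 in CA4, and the CA4 libraries lay on both sides of the DMSO libraries. Its log2 fold change was -0.0073, and the 95% interval from -0.25 to 0.23 leaves room for a modest change in either direction (limma adjusted p = 0.978). The interval of CCND3 overlaps that of CCND1.

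The E cyclins were scarce and lower in CA4. CCNE1, on chromosome 19 at 29811898 to 29824308 on the plus strand, had 44.4, 43.9 and 38.9 normalized counts in DMSO libraries 1 to 3 in order and 27.1, 20.2 and 16.7 in CA4. The lowest DMSO library, with 41 recovered reads, lay above the highest CA4 library, with 28. Its log2 fold change of -0.98 had a 95% interval from -1.69 to -0.28 and missed the threshold (limma adjusted p = 0.105), with only 15 to 47 reads per library behind it.

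CCNE2 had 117, 88.8 and 108 normalized counts in DMSO libraries 1 to 3 in order and 77.3, 72.9 and 51.3 in CA4. Its groups did not overlap either, and its log2 fold change was -0.64 with a 95% interval from -1.19 to -0.10 (limma adjusted p = 0.156). In GENCODE 29, 37.1% of the exon bases of CCNE2 lie in INTS8, a gene on the opposite strand. INTS8 had 646, 585 and 662 normalized counts in DMSO and 533, 388 and 419 in CA4 and so was lower in CA4 as well, and since the use of strand is not given in the sources used here, its part in the values of CCNE2 was not tested.

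**Figure D2:**
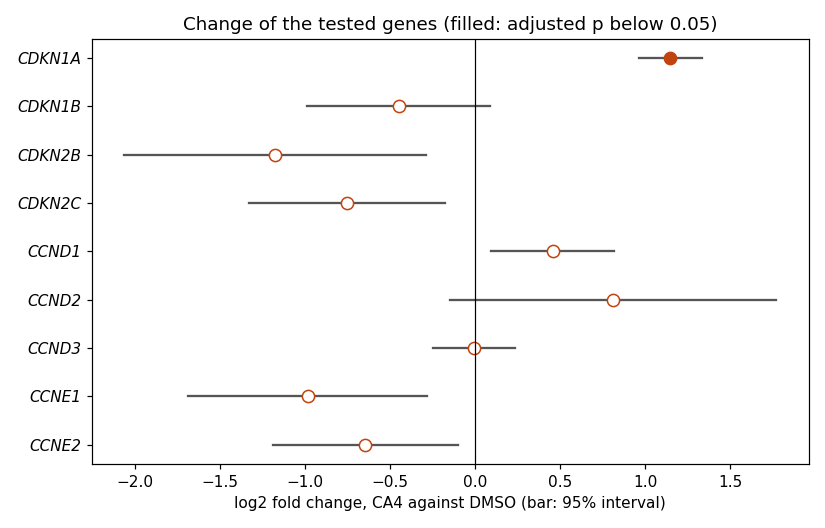
Log2 fold change of CA4 against DMSO (horizontal axis) for the 9 tested genes with 95% intervals from limma; a filled point passed an adjusted p of 0.05. CDKN1A at 1.15 is the only filled point, and the intervals of CDKN1B, CCND2 and CCND3 cross 0.

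To compare genes with one another, levels were put per kilobase of merged GENCODE 29 exons. In DMSO the order was CCND1 with a level of 3727 ± 662 normalized counts per kilobase, CDKN1A with 1511 ± 74.6, CDKN2B with 1088 ± 372, CDKN1B with 649 ± 144, CCND3 with 181 ± 6.85 and CDKN2C with 168 ± 25.6 (SD, n = 3 each). The E cyclins followed with levels of 23.8 ± 3.27 for CCNE2 and 16.6 ± 1.19 for CCNE1, and CCND2 and CDKN1C lay below 2 normalized counts per kilobase. The libraries of CDKN1A and CDKN2B overlapped, since CDKN2B in DMSO replicate 3 (1458) lay above CDKN1A there (1425), and so did those of CDKN2B and CDKN1B and of CCND3 and CDKN2C.

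In CA4 the levels were 5100 ± 817 normalized counts per kilobase for CCND1 and 3347 ± 205 for CDKN1A (SD, n = 3 each). CDKN2B had a level of 498 ± 208 and CDKN1B one of 479 ± 130 (SD, n = 3 each), and the levels of the 2 genes overlapped in CA4 as in DMSO. The choice of length matters most for CCND3, whose DMSO level was 440 per kilobase of its longest coding transcript. By either length CCND1 and CDKN1A had the highest mean levels in both groups.

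Ratios between genes within a library do not depend on how libraries were scaled. They were taken from normalized counts without regard to length, so only their change between groups can be read. Of the 9 planned ratios, 8 could be formed, and CDKN1A to CDKN1C was left out because CDKN1C was too low. The ratio of CDKN1A to CDKN1B was 3.43, 2.16 and 2.28 in DMSO libraries 1 to 3 in order and 9.98, 5.68 and 8.27 in CA4, a 3.02-fold higher value with no overlap (two-sided exact permutation p = 0.1, adjusted 0.2 over 8 ratios, where 0.1 is the smallest p that 3 libraries against 3 allow). The ratio of CDKN1A to CCND1 was 0.22, 0.296 and 0.265 in DMSO and 0.341, 0.455 and 0.469 in CA4, a 1.62-fold higher value (exact p = 0.1, adjusted 0.2). Neither ratio overlapped between groups, and neither could reach 0.05 in this design.

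The ratio of CCND1 to CCNE1 was 488, 362 and 422 in DMSO and 1074, 1066 and 1393 in CA4, a 2.71-fold difference (exact p = 0.1, adjusted 0.2). CCNE1 to CCNE2 went from 0.38, 0.495 and 0.36 to 0.35, 0.277 and 0.326, where the groups were separate by a small gap (exact p = 0.1, adjusted 0.2). Its log2 difference of -0.34 was -0.20 without DMSO replicate 2, and with a pseudocount of 5 its exact p was 0.2. The ratios of CDKN2B to CDKN2C, CCND1 to CCND2, CCND1 to CCND3 and CCND1 to CDKN1B overlapped between groups, with exact p-values from 0.2 to 0.6 and adjusted values from 0.32 to 0.6. The CDKN2B to CDKN2C ratio spread from 4.55 to 12.6 within DMSO and from 2.5 to 10.9 within CA4, so the pair of INK4 genes did not keep a fixed proportion from library to library.

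**Figure D3:**
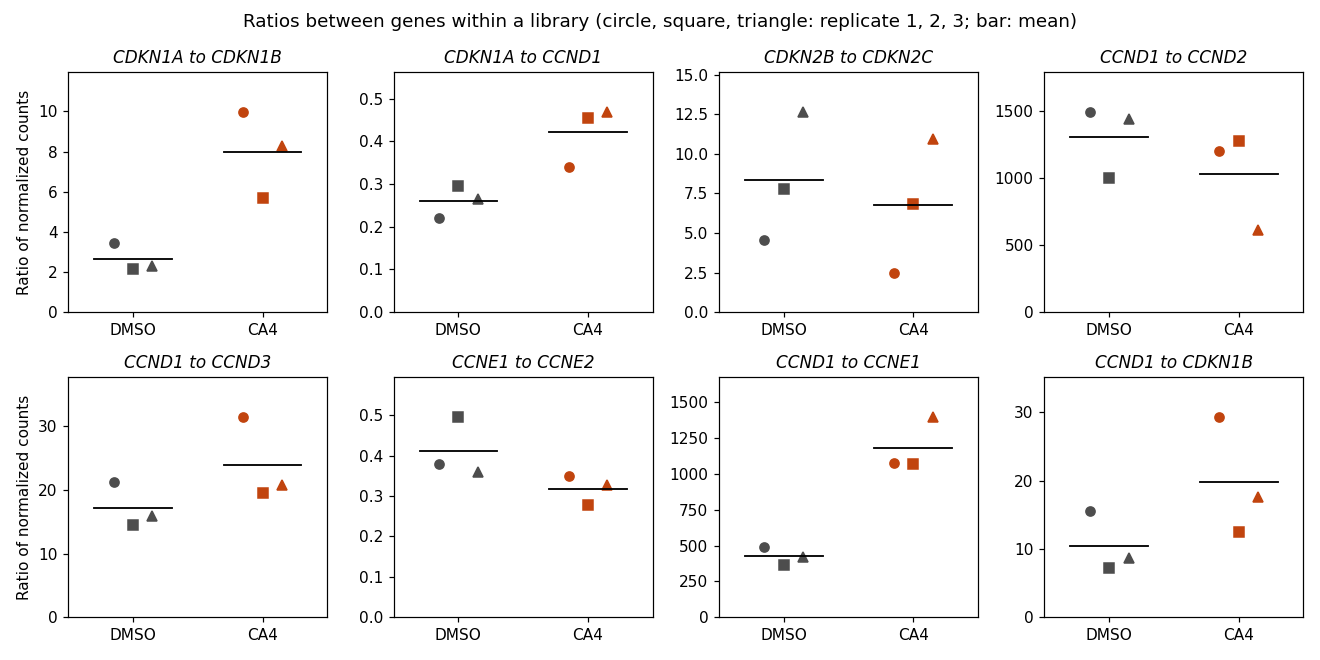
Ratio of normalized counts between 2 genes in the same library (vertical axes, from 0), with circles, squares and triangles for replicates 1, 2 and 3 and a bar for the group mean. CDKN1A to CDKN1B and CCND1 to CCNE1 show wide gaps between DMSO and CA4, and CDKN2B to CDKN2C and CCND1 to CCND2 overlap.

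Summed by class, the CIP/KIP inhibitors had 6435 ± 405 normalized counts in DMSO and 11560 ± 676 in CA4, and the INK4 inhibitors 4975 ± 1427 and 2362 ± 790 (SD, n = 3 each). The D cyclins had 19066 ± 3169 and 25707 ± 3843 and the E cyclins 147 ± 14.3 and 88.5 ± 18.6 (SD, n = 3 each). The sums of CIP/KIP inhibitors, of the INK4 pair and of E cyclins did not overlap between groups (two-sided exact permutation p = 0.1 each, adjusted 0.133 over 4 classes), and those of the D cyclins did (exact p = 0.2, adjusted 0.2). A single gene made up most of each sum in every library. Beside CDKN1A in the CIP/KIP sum, these were CCND1 with 93.5% to 96.8% of the D cyclins, CDKN2B with 71.4% to 92.7% of the INK4 pair and CCNE2 with 66.9% to 78.3% of the E cyclins.

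The genes with the most similar pattern over the 6 libraries were taken by Pearson correlation of log2 values, as a description of 6 points that share the 2 groups. For CDKN1A they were DLGAP4, COPG1, KRT80, IKBKB and SCARF2, with r from 0.997 to 0.999. All 5 rose in CA4, with log2 fold changes from 0.33 for COPG1 to 0.89 for SCARF2 and limma adjusted p-values from 0.00584 to 0.0347, all smaller changes than that of CDKN1A. Because they were picked for following CDKN1A over these same libraries, their rise and p-values are no separate evidence. The closest gene to CCND1 was CHST3 (r = 0.999), with 9772, 6413 and 6906 normalized counts in DMSO and 14495, 9700 and 11051 in CA4. Like CCND1, CHST3 was highest in replicate 1 of each group. The closest genes to the other members were PTOV1 for CDKN1B, ATG14 for CDKN2B, SH3BP2 for CDKN2C, PPP3R1 for CCND2, PCDH12 for CCND3, PROS1 for CCNE1 and HSD17B7P2 for CCNE2, with r from 0.985 to 0.997 and none past the threshold in limma.

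Genes that act with these 10 were described from 8 lists drawn from general knowledge. The lists were chosen with earlier results of these data known, so counts within them are a description and not an independent test. Their counts stand against the shares of all tested genes, which are 2.97% higher and 1.97% lower in limma, 4.62% called by edgeR, 11.6% called by DESeq2 and 23% at an unadjusted limma p under 0.05. Among 7 CDK partners and parts of the CDK-activating kinase, 0 rose and 1 fell in limma's test. That gene, CDK6, the partner of D cyclins, had 1912, 1932 and 2320 normalized counts in DMSO libraries 1 to 3 in order and 1422, 1511 and 1398 in CA4, with no overlap. Its log2 fold change was -0.50 (SE 0.10, limma adjusted p = 0.035), and it passed in 1 of the 6 fits that each leave out a library, the one without DMSO replicate 1, with limma adjusted p-values from 0.0345 to 0.122. It was lost without the variance trend (limma adjusted p = 0.0909). CDK4, the other partner, had a log2 fold change of -0.11, or -0.17 to -0.02 when a library was left out (limma adjusted p = 0.549), and CDK2, the partner of E cyclins, one of -0.42 (limma adjusted p = 0.111) with no overlap between groups. CCNH, the cyclin of the CDK-activating kinase, had one of 0.46 with no overlap between groups (limma adjusted p = 0.0887). edgeR called CDK6 alone, and DESeq2 called 2 of the 7, CDK6 and CCNH (DESeq2 adjusted p = 7.18e-04 and 0.038), where it called 11.6% of all genes. CDK4, CDK2 and CCNH were named after their values were seen.

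Of 13 pocket proteins, E2F and DP factors, 0 passed in limma or edgeR, 1 had an unadjusted p under 0.05 and 1 passed in DESeq2, where 23% and 11.6% of all tested genes did. That gene was TFDP2, a dimer partner of E2F factors, with a log2 fold change of -0.85 (limma adjusted p = 0.121). RB1, the retinoblastoma gene, had overlapping groups, with 1363 to 1451 normalized counts in DMSO and 1247 to 1533 in CA4, and was named after its values were seen. RBL1 had a log2 fold change of -0.63, or -0.79 to -0.36 when a library was left out, and E2F4 one of 0.30 (limma adjusted p = 0.224 and 0.226). Another 7 genes belong to or act on the MuvB core, which is part of the DREAM complex that keeps cell cycle genes silent in quiescence. They include DYRK1A, a kinase that promotes DREAM assembly, and MYBL2, which joins MuvB to activate mitotic genes. Of these 7, 0 passed in limma, edgeR or DESeq2 and 2 had an unadjusted p under 0.05. The smallest adjusted p were those of LIN9, RBBP4 and LIN54, at -0.65, -0.23 and -0.34 in log2 terms (limma adjusted p = 0.137, 0.191 and 0.279), with LIN54 from -0.44 to -0.19 when a library was left out.

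Among 9 parts of the ubiquitin ligases that turn over CDK inhibitors and G1 cyclins, 0 passed in limma, edgeR or DESeq2 and 2 had an unadjusted p under 0.05. FBXO31, which targets cyclin D1, had a log2 fold change of 0.35, SKP2, which targets p27, one of -0.39, and SKP1 one of -0.14 (limma adjusted p = 0.105, 0.2 and 0.41), with SKP1 from -0.18 to -0.06 when a library was left out. The 3 other CDK inhibitor genes gave 0 calls in limma, edgeR and DESeq2 and 0 at an unadjusted p under 0.05. CDKN2A, the neighbour of CDKN2B that encodes p16 and ARF, was read at 3869, 4158 and 4585 normalized counts in DMSO and 3104, 3900 and 3737 in CA4, a log2 fold change of -0.23 with overlapping groups (limma adjusted p = 0.26), or -0.30 to -0.14 when a library was left out. In log2 terms CDKN2D differed by -0.36 (limma adjusted p = 0.268) and CDKN3 by -0.74 (limma adjusted p = 0.291), or -1.01 to -0.42 when a library was left out.

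Of 15 upstream regulators of the members, most of them transcription factors, 1 rose and 0 fell in limma, 0 passed in edgeR and 4 in DESeq2, and 7 had an unadjusted p under 0.05, all 7 higher in CA4. Over all tested genes 2.97% rose in limma, 11.6% passed in DESeq2 and 23% had such an unadjusted p. The list's median log2 fold change was 0.25, against -0.0082 for all tested genes. MYC, which drives growth and represses CDKN1A and CDKN2B, had 1091, 797 and 680 normalized counts in DMSO libraries 1 to 3 in order and 1817, 1323 and 1470 in CA4. Its log2 fold change of 0.86 (SE 0.19) passed narrowly (limma adjusted p = 0.0487). It missed the threshold in 7 of the 12 alternatives that keep every library, edgeR (adjusted p = 0.0531) and 3 other scalings among them, with adjusted p-values up to 0.108 without the variance trend. It also missed it in 5 of 6 fits without a library, all but that without DMSO replicate 1, with limma adjusted p-values from 0.0172 to 0.161. In log2 terms ETS1 differed by 1.00 (limma adjusted p = 0.0612) and ETS2, of the same family, by 1.05 (limma adjusted p = 0.0581). MDM2, a ubiquitin ligase gene of the same list, had a log2 fold change of 0.51, or 0.34 to 0.63 when a library was left out (limma adjusted p = 0.0981). FOSL1, an AP-1 subunit, had the largest log2 fold change of the list, 1.27 (limma adjusted p = 0.116). ETS1, ETS2, MDM2 and FOSL1 were named after their values were seen. In 6 of the 15 genes, these 4 and MYC among them, every CA4 library was above every DMSO library, as in 14.3% of all tested genes. In 1 of the 15 every CA4 library was below every DMSO library, as in 13.4% of all tested genes. None of ETS1, ETS2, MDM2 and FOSL1 passed in limma or edgeR, and ETS1, ETS2 and MDM2 passed in DESeq2 (DESeq2 adjusted p = 0.0012, 0.0035 and 0.0206).

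Among 13 antiproliferative and quiescence genes, of which 12 were tested, 0 rose and 3 fell, where 1.97% of all tested genes fell. edgeR also called 3 of the 12 and DESeq2 called 6, against 4.62% and 11.6% of all tested genes. CCNG2, an unconventional cyclin that rises in arrested cells under FOXO factors, had 719, 1198 and 1213 normalized counts in DMSO libraries 1 to 3 in order and 203, 499 and 296 in CA4, a difference of -1.70 on the log2 scale (SE 0.34, limma adjusted p = 0.0356). DDIT4, an inhibitor of mTORC1 signalling, had 1321, 3136 and 1516 in DMSO and 281, 633 and 612 in CA4, a difference of -1.95 on the log2 scale (SE 0.40, limma adjusted p = 0.0403). HES1, a Notch target that guards the reversibility of quiescence, had 464, 299 and 355 in DMSO and 203, 178 and 173 in CA4, a difference of -0.99 on the log2 scale (SE 0.18, limma adjusted p = 0.0285). None of the 3 genes overlapped between groups. CCNG2 passed in 2 of the 6 fits that each leave out a library (limma adjusted p-values from 0.0257 to 0.139), DDIT4 in 1 (0.0347 to 0.114) and HES1 in 1 (0.0349 to 0.105). DDIT4 and HES1 kept it without DMSO replicate 1, and CCNG2 without DMSO replicate 1 or CA4 replicate 2. Without the variance trend none of the 3 passed (limma adjusted p = 0.0907 for CCNG2, 0.0966 for DDIT4 and 0.0685 for HES1). The list's median log2 fold change was -0.38, against -0.0082 for all tested genes.

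Of 22 S phase and mitosis genes, which stand downstream of the cyclins, 0 passed in limma or edgeR, 3 passed in DESeq2 and 4 had an unadjusted p under 0.05, where 11.6% and 23% of all tested genes did. Their median log2 fold change was -0.40, against -0.0082 for all tested genes, and 21 of the 22 were below 0, against 51.1% of all tested genes. The helicase genes MCM7, MCM2 and MCM4 had the smallest adjusted p, at -0.53, -0.69 and -0.98 in log2 terms (limma adjusted p = 0.0798, 0.112 and 0.125). The mean log2 level over the 22 genes was 9.74, 8.89 and 8.66 in DMSO libraries 1 to 3 in order and 9.22, 8.76 and 8.04 in CA4. The groups overlapped, and replicate 1 stood highest in each. MKI67, a marker of cycling cells, was read at 4849, 2045 and 2246 normalized counts in DMSO and 4233, 2388 and 1191 in CA4, chosen after its values were seen. The share of cells still cycling in each library was not measured. Replicate 1 also had the highest CCND1 and the lowest CDKN1B and CDKN2B of its group, in DMSO and in CA4 alike, whereas CDKN1A did not follow this order. The part of this difference between libraries in the results for CCND1, CDKN1B and CDKN2B was not tested.

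**Figure D4:**
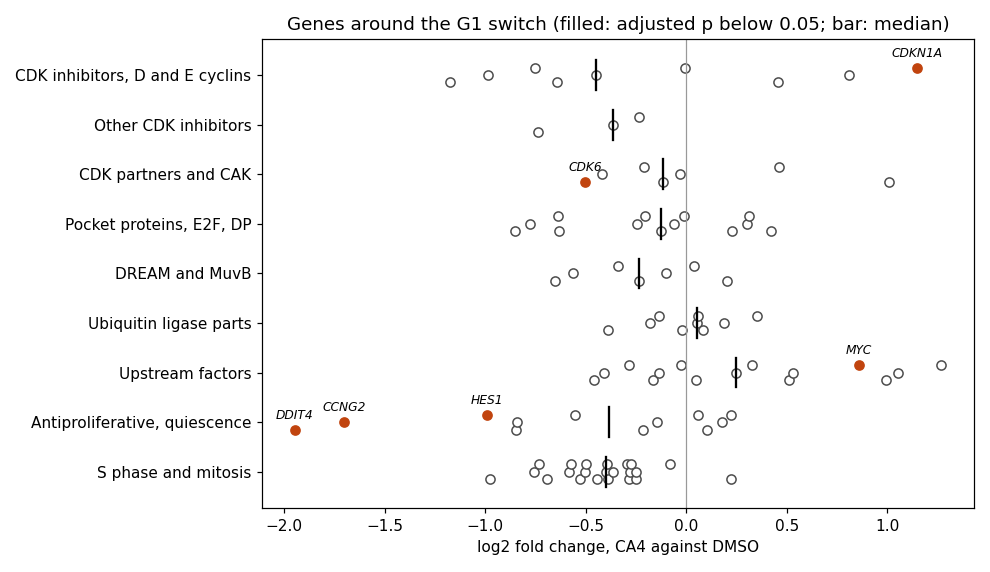
Log2 fold change of CA4 against DMSO (horizontal axis) for the tested genes of the 10-gene set and of the 8 lists around it, with a bar at each list's median; filled points passed an adjusted p of 0.05 in limma, and CAK is the CDK-activating kinase. The filled points are CDKN1A and MYC, which were higher, and CDK6, HES1, CCNG2 and DDIT4, which were lower.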

How the data were processed

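Gene expression was measured in 3 DMSO and 3 CA4 libraries. The authors deposited 1 table of normalized counts, a signal in which each gene's reads were divided by 1 factor per library. Per the submitters' processing notes, Trim Galore 0.6.6, FastQC 0.12.1, Salmon 1.8.0, STAR 2.7.9a, DESeq2 1.44.0 and the build GRCh38 were used; their roles, the annotation and the use of strand are not given in the sources used here. In each column 100% of values were whole multiples of 1 step within a tolerance of 0.01. Dividing by the step gave whole reads, which may be rounded estimates.

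IDs were matched to symbols through the supplied name table or GENCODE 29. Genes with a mean of at least 10 were tested with limma 3.58.1 (R 4.3.3) on log2(normalized count + 1), with treatment as the only term and a variance trend, two-sided, with Benjamini-Hochberg adjustment over all 13928 tested genes. Fold changes on this scale understate those of low genes. Errors of group means are SDs over 3 libraries. edgeR 4.0.16 and DESeq2 1.42.0 were run on the recovered reads. Ratios and class sums were compared by exact permutation. The scripts were tested on simulated data.

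The members and lists were chosen with earlier results of these data known. Named genes are the members, every list gene past the threshold, otherwise the 3 of each list with the smallest adjusted p, the 1 gene most correlated with each member (5 for CDKN1A), and the marker genes by level. Other names are marked, except DYRK1A and MYBL2, named to describe their list, and the genes whose exons overlap those of a member. No protein sequences were used here.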

Additional observations from a re-analysis of the deposited data

How the results depend on the processing

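Alternatives tried were a pseudocount of 0.1 or 5, no filter, a mean of at least 50, 3 other scalings, no variance trend, a robust prior, the replicate block, edgeR, DESeq2 and leaving out each library. CDKN1A passed in all 12 that keep every library, with log2 fold changes from 1.04 to 1.15, and in all 6 that leave one out. The other 8 tested members kept their direction except CCND3, which spanned -0.0553 to 0.0805 when a library was left out and was above 0 without DMSO replicate 2 (0.0231) and without CA4 replicate 1 (0.0805). Against 688 genes, 1 member and 5 list genes past the threshold, there were 103, 1 and 0 without the variance trend, and 1613, 3 and 16 with DESeq2. Leaving out 1 library gave 81 genes (without DMSO replicate 3) to 994 (without DMSO replicate 1), 1 to 2 members and 0 to 10 list genes. The counts of genes without DMSO replicate 2, CA4 replicate 1 and CA4 replicate 3 were 100, 156 and 150. The cause of these differences was not tested, and each such fit has fewer samples.

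The ratios kept their direction in 63 of 64 alternatives and the class sums in all 44. The exception was CDKN2B to CDKN2C, with a log2 difference of -0.42 in all libraries, which spanned -0.89 to 0.17 when a library was left out and was above 0 without CA4 replicate 1. CCND2 and CCNE1 could not be tested at a mean of at least 50.

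With the replicate block there were 2397 genes (17.2%), 5 members and 31 list genes, and 10 of the list genes were S phase and mitosis genes that were all lower in CA4. The members were CDKN1A, CDKN1B, CDKN2B, CDKN2C and CCND1, with limma adjusted p-values of 8.41e-04, 0.0104, 0.00309, 0.0127 and 0.00291. Same-numbered libraries had correlations of 0.202, 0.159 and 0.0588 between their deviations from the group means, and not all exceeded 0.1. The 6 correlations between different numbers ran from -0.214 to 0.0741, and 5 of them were below 0. Of the 6 libraries, 5 correlated best with their own number, a hint from the data and not from the design, and CA4 replicate 3 correlated best with DMSO replicate 2 (0.0741). The labels give the number no meaning beyond a replicate, so the libraries were not treated as paired. Depth limits CCND2, CCNE1 and CDKN1C, which had at most 47 reads in any library.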
